A study of Homo sapiens with 4 samples.

Results

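The peaks described here are the 5-methylcytosine (m5C) peaks at 7 human mucin genes that lie in 2 groups, MUC3A, MUC12 and MUC17 on the plus strand of chromosome 7 (band 7q22), and MUC6 (minus strand), MUC2, MUC5AC and MUC5B (plus strand) on chromosome 11 (band 11p15). Members are all deposited peaks that overlapped 3 hg19 windows around these genes by 1 bp or more on the stated strand. They number 31 of 8919 peaks, 17 of 3177 in replicate 1 and 14 of 5742 in replicate 2. The windows were chosen from peak positions and scores of these same lists, so the number of peaks in them is a description and carries no test. Here m5C, a methylated form of the RNA base cytosine, was mapped by MeRIP-seq, in which RNA pieces bound by an antibody are sequenced beside unselected input RNA. All 4 samples (2 immunoprecipitated, 2 input) were cells of the pancreatic cancer line PANC-1, an established human line, pretreated with extracellular vesicles (Evs) from cancer-associated fibroblasts (CAFs), the activated stromal cells of a tumour. Samples without vesicles were not analysed here, so nothing below is an effect of the vesicles. Each replicate number has 1 peak list, and the labels do not say whether the replicates are separate cultures.

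Mucins are the large glycoproteins that coat and lubricate epithelia, including the ducts of the pancreas. Their cores hold long stretches rich in serine, threonine and proline, which carry the sugar chains and are often encoded by tandem repeats in very long exons. MUC2, MUC5AC, MUC5B and MUC6 are secreted and form gels, whereas MUC3A, MUC12 and MUC17 are anchored in the cell membrane. Gel-forming mucins such as MUC5AC and MUC6 are well known in precursor lesions of pancreatic cancer.

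No gene is given for a peak in the lists. Within each window, peaks were given to genes by cuts placed between neighbouring genes from general knowledge of hg19, and the nearest member peak lay 8023 bp or more from any such cut. Exons, introns and UTRs were therefore not assigned. The files hold no counts, so the depth behind each peak is unknown and a gene without a listed peak is not shown to lack m5C. How strongly each RNA was expressed was not analysed here either.

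Peaks fell in every one of the 7 genes when the lists were read together, and 3 genes had them in both. MUC12, MUC2 and MUC5AC had a peak in each replicate, MUC17 and MUC6 in replicate 1 only, and MUC3A and MUC5B in replicate 2 only. Over the whole lists, too, most peaks had no overlapping partner: 13.6% of replicate 1 and 7.49% of replicate 2 peaks had one. With so few peaks in most of these genes, peaks in 1 list only are not read as a difference between genes. Peaks of the replicates overlapped in 2 genes, MUC12 and MUC2. MUC12 held 10 of the 17 replicate 1 peaks and 6 of the 14 replicate 2 peaks, more than any other of the 7 genes in either list. The chromosome 7 window held 18 of the 31 members, or 58.1%. Its 11 replicate 1 peaks made up 16.9% of the 65 replicate 1 peaks on the plus strand of chromosome 7. Its 7 replicate 2 peaks made up 4.58% of 153.

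**Figure D1:**
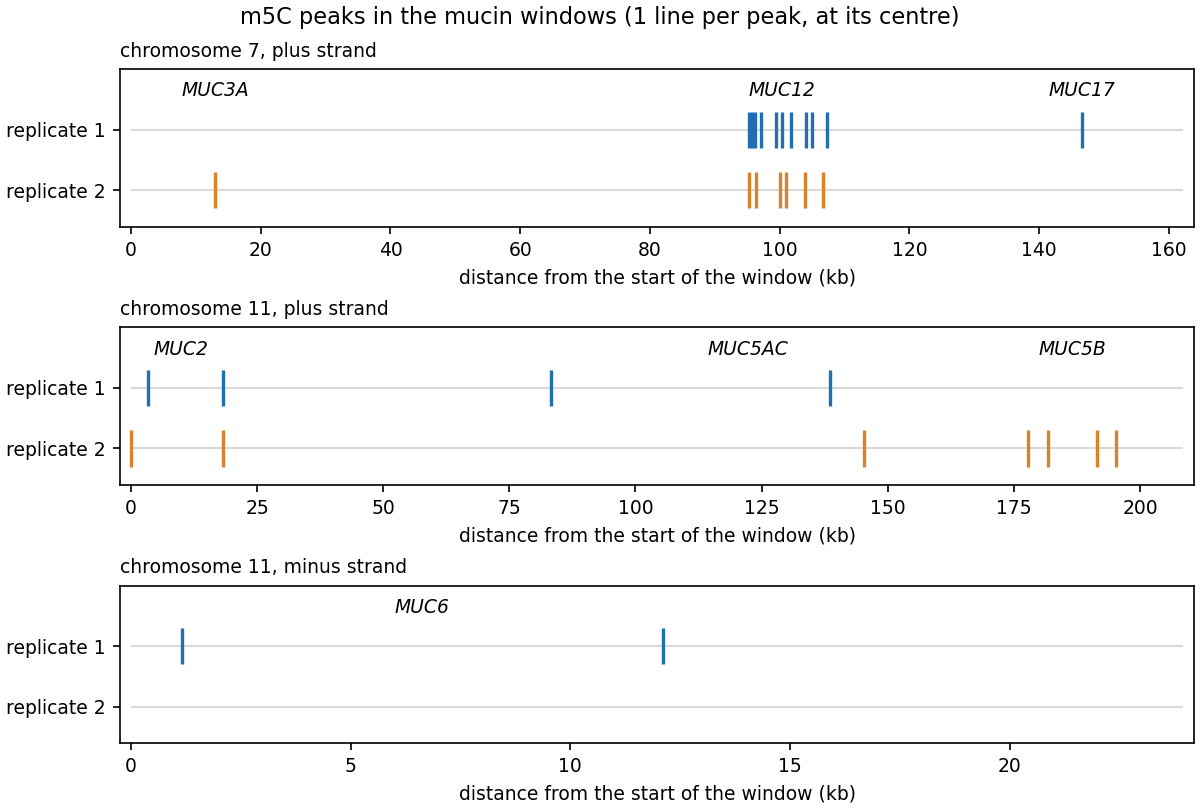
Each line is the centre of 1 m5C peak, placed by its distance in kb from the start of its window, with replicate 1 above replicate 2 in each panel. The 16 MUC12 peaks crowd in a short stretch where both lists have peaks, while MUC6 has replicate 1 peaks only and MUC5B replicate 2 peaks only.

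MUC12, a membrane-bound mucin, carried its 10 replicate 1 peaks in 12299 bp, from 100635136 to 100647434 (hg19, 1-based). Its 6 replicate 2 peaks lay from 100635145 to 100646904, a span of 11760 bp. The replicate 1 peaks were 200 to 453 bp wide with a median of 343 bp, against 167 bp for all peaks of that list. The replicate 2 peaks were 252 to 1216 bp wide with a median of 440 bp, against 141 bp. In both lists the MUC12 peaks were wider than the median peak, and none was under 200 bp. Peak positions chose the windows and widths at similar loci were not compared, so nothing is read from these widths.

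A replicate 2 peak lay over 6 of the 10 replicate 1 peaks, and a replicate 1 peak over 5 of the 6 replicate 2 peaks. Over the whole lists such overlaps were found for 13.6% of replicate 1 and 7.49% of replicate 2 peaks, and nothing is read from the difference, since peak positions chose the windows. These made 7 overlapping pairs of very unequal length. The first pair joined the first peak of each list, from 100635136 to 100635341 in replicate 1 and from 100635145 to 100635446 in replicate 2, with 197 bp in common. The next replicate 2 peak, 1018 bp wide from 100635871 to 100636888, held the whole 200-bp replicate 1 peak from 100636029 to 100636228. It also reached 9 bp into the replicate 1 peak from 100636880 to 100637222. Here the replicate 2 peak stopped almost where the replicate 1 peak began.

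The same arrangement was seen at 2 further places. The replicate 2 peak from 100639801 to 100640138 ended 10 bp inside the replicate 1 peak from 100640129 to 100640471. The widest member of all, the 1216-bp replicate 2 peak from 100640345 to 100641560, shared 127 bp with that same replicate 1 peak. At its other end it overlapped the replicate 1 peak from 100641551 to 100641893 by 10 bp. So 3 of the 7 MUC12 pairs were contacts of 9 or 10 bp, in which a replicate 2 peak lay just before a replicate 1 peak. In the last pair, 239 bp were shared by the replicate 1 peak from 100643802 to 100644254 and the replicate 2 peak from 100643789 to 100644040.

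**Figure D2:**
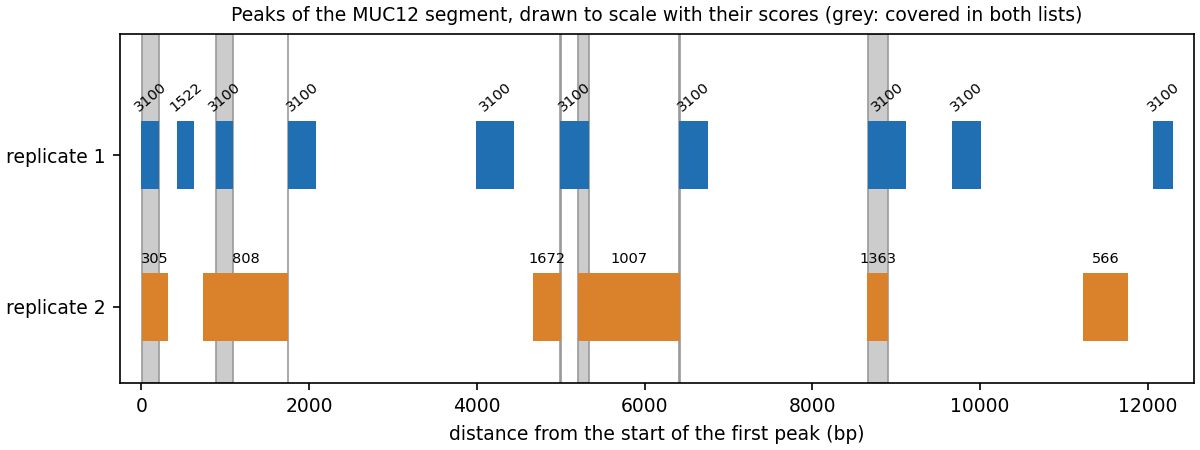
Bars are the MUC12 peaks drawn to scale along their distance in bp from the start of the first peak, with replicate 1 above replicate 2, the authors' score (rounded) at each bar and grey bands where both lists cover the sequence. Of the 7 grey bands 3 are thin lines, the overlaps of 9 or 10 bp where a replicate 2 peak ends and a replicate 1 peak begins.

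Both lists together covered only part of the MUC12 sequence that either covered, though a larger part than over the whole lists. Replicate 1 peaks covered 3121 bp of MUC12 and replicate 2 peaks 3668 bp, and 792 bp were covered by both, which is 13.2% of the 5997 bp covered by either. Over all peaks of both lists, 4.58% of the covered sequence was covered by both. In MUC12, 2 of 7 pairs covered at least 50% of each peak, against 55.9% of all 435 pairs of the lists. Pairs that share 10 bp or less made up 3.91% of all pairs. None of the 7 pairs had a start or an end on the same base in both lists, whereas 52.2% of all pairs did. No test is given for these shares, since the pairs lie side by side in 1 gene that was chosen from these lists.

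The remaining MUC12 peaks met none of the other list. In replicate 1 these were the peaks from 100635563 to 100635762, from 100639131 to 100639583, from 100644800 to 100645142 and from 100647198 to 100647434. They lay 109, 218, 760 and 294 bp from the nearest replicate 2 peak. In replicate 2 it was the 542-bp peak from 100646363 to 100646904, which lay 294 bp from the last replicate 1 peak. All 16 peaks of this gene were thus within 1 kb of a peak of the other list.

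Replicate 1 peaks of MUC12 repeated a pattern of widths and distances to the base. A peak of 343 bp (start 100636880) was followed by one of 453 bp (start 100639131) and one of 343 bp (start 100640129). The same 3 widths came again, in the same order, at starts 100641551, 100643802 and 100644800. Each of the second 3 peaks started exactly 4671 bp after its counterpart, and the gaps between neighbours, 1908 and 545 bp, were also the same in both sets. The distance of 4671 bp is 1557 times 3 bp, the length of a codon; whether the stretch is all coding was not assigned here. Within each set the starts lay 2251, 998 and, between the outer peaks, 3249 bp apart, and of these only the last is a multiple of 3 bp.

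Replicate 2 did not repeat that pattern of widths and starts. Its 6 MUC12 peaks had 6 different widths, and none of the 15 distances between their starts occurred again. The ends of its 2 widest peaks, at 100636888 and 100641560, lay 4672 bp apart, which differs by 1 bp from the distance that recurred in replicate 1. Both of these ends fell within the first 10 bp of a 343-bp peak of replicate 1, 8 and 9 bp after its start. The replicate 2 end at 100640138 did so too, 9 bp after the start of the 343-bp peak at 100640129. The last 343-bp peak, at 100644800, had its nearest replicate 2 peak 760 bp away.

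**Figure D3:**
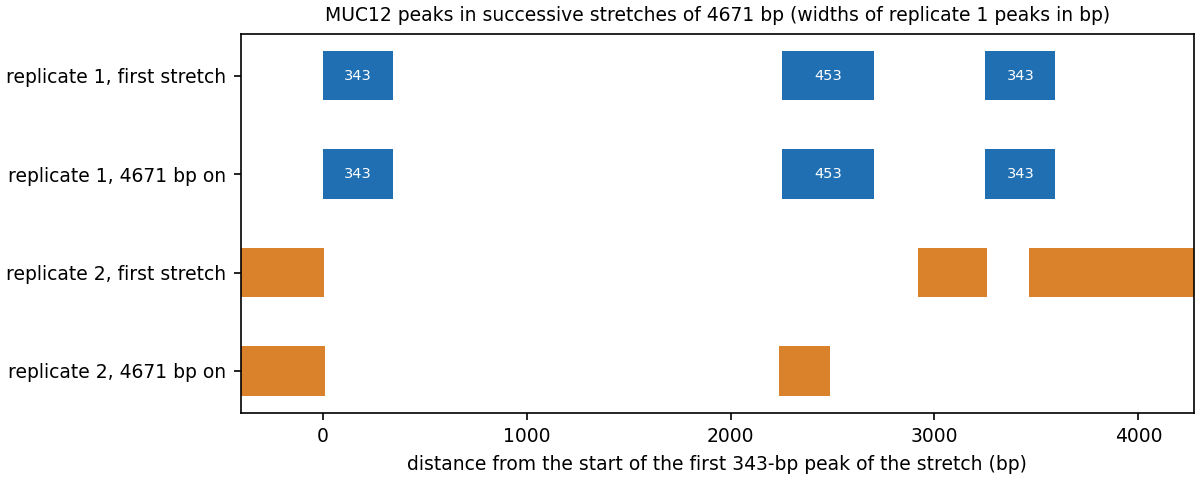
The MUC12 sequence is drawn as 2 successive stretches of 4671 bp aligned at the start of their first 343-bp replicate 1 peak, with distance from that start in bp on the x axis and bars for peaks. The 3 replicate 1 bars (343, 453 and 343 bp) have the same positions in both stretches. The replicate 2 bars cut at the left edge end almost at the same place in both, 8 and 9 bp after the start of the 343-bp peak. The other replicate 2 bars have different positions. The replicate 2 bar cut at the right of the first stretch is the one that enters the second at the left.

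Equal widths were counted among neighbouring peaks. In MUC12, 8 of the 45 pairs of replicate 1 peaks had equal widths, against 56 of all 644 same-strand pairs within 20 kb in that list, or 8.70%. None of the 15 replicate 2 pairs did, against 1.26% of 1353. The pairs of the whole lists include those of MUC12, and pairs share peaks, so nothing is read from these differences. Over the whole of replicate 1, 4 distances within 20 kb recurred between equal-width peaks, 2 of them in MUC12 and 2 in DMBT1, a mucosal glycoprotein gene with repeated exons. In DMBT1 the peaks were 30 bp wide and 4059 bp apart in 3 pairs. Replicate 2 had no such distance. How reads that match more than one place were handled is not given in the sources used here, and whether the repeated MUC12 peaks share reads was not tested.

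Of the other membrane-bound mucins, MUC17 had 1 replicate 1 peak of 202 bp, from 100686480 to 100686681, with a score of 3100. The nearest replicate 2 peak lay 39576 bp away, at the end of the MUC12 group. MUC3A had 1 replicate 2 peak of 186 bp, from 100552881 to 100553066. Its score of 59.27 was among the lowest of that list, with 3.10% of replicate 2 peaks below it. The nearest replicate 1 peak was 82070 bp away, so neither gene had a position with peaks in both replicates.

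MUC2, the main gel-forming mucin of the intestine, had the longest overlap among the members. Its replicate 1 peak from 1092653 to 1093480 (828 bp) and its replicate 2 peak from 1092784 to 1093540 (757 bp) had 697 bp in common. That is 84.2% of the former and 92.1% of the latter. Both were wide for their lists, wider than 99.7% of replicate 1 peaks and 98.7% of replicate 2 peaks. The replicate 1 score of 3100 exceeded 47.9% of its list, in which 1638 peaks have that score. The replicate 2 score of 2802.95 exceeded 99.1% of replicate 2 peaks. Among the 14 replicate 2 members it was the highest score. Because peak positions and scores of these lists were known when the windows were set, these values are a description only.

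The other peaks of MUC2 lay near the start of its window, and the replicates differed there. Replicate 1 had a 110-bp peak from 1078267 to 1078376 with a score of 3100. Replicate 2 had a 103-bp peak from 1074875 to 1074977 with a score of 217.92, a value that 21 peaks of that list share. The peaks were 3290 bp apart. The replicate 2 peak began 5 bp after the first base of the window, closer to a window edge than any other member. For this reason the sequence around the annotated MUC2 start is shown, from RefSeq, build GRCh38.p14, chromosome 11 plus strand, 1074624 to 1074923, with the first 50 transcribed bases in capitals.

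MUC2 start: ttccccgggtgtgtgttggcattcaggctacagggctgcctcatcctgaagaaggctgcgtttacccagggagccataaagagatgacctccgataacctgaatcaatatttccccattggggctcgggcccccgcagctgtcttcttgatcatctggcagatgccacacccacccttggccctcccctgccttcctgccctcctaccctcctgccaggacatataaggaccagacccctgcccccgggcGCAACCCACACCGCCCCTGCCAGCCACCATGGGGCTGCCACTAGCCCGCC

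In these 50 bases C makes up 52.0%, against a median of 28.0% over the same stretch of the 35116 entries of that table. The share is given for MUC2 only and without its rank among the entries, so nothing about the peak is read from it. A peak cannot be placed on this sequence, since the peaks are in hg19 and no genome of that build was used. The table held such a stretch for 4 of the 7 genes.

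MUC5AC, a gel-forming mucin of the airways and stomach, had 2 replicate 1 peaks and 1 replicate 2 peak, and none met. The replicate 1 peaks measured 126 bp (1158024 to 1158149) and 200 bp (1213364 to 1213563), both with a score of 3100. The replicate 2 peak measured 123 bp (1220100 to 1220222), with a score of 349.19. It lay 6537 bp beyond the nearer replicate 1 peak.

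MUC5B, a gel-forming mucin of airways and salivary glands, had 4 replicate 2 peaks and no replicate 1 peak. Over the whole list 7.49% of replicate 2 peaks overlapped a replicate 1 peak, so this is no contrast with the list. The 4 peaks lay within 17638 bp. The first 2, of 110 bp (1252653 to 1252762) and 111 bp (1256533 to 1256643), had scores of 764.31 and 999.75, above 83.8% and 89.8% of their list. The other 2, of 200 bp (1266320 to 1266519) and 300 bp (1269991 to 1270290), had the lower scores of 173.47 and 87.44. The nearest replicate 1 peak was 39090 bp away from the first of them, in MUC5AC.

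MUC6, a gel-forming mucin of gastric glands that is transcribed in the opposite direction, had 2 replicate 1 peaks and no replicate 2 peak. Over the whole list 13.6% of replicate 1 peaks overlapped a replicate 2 peak, so this is no contrast with the list or with MUC5B. The MUC6 peaks measured 103 bp (1013899 to 1014001) and 132 bp (1024844 to 1024975), with scores of 55.47 and 571.89. These were the lowest scores among the 17 replicate 1 members. The nearest replicate 2 peak on the same strand lay 399365 bp away.

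**Figure D4:**
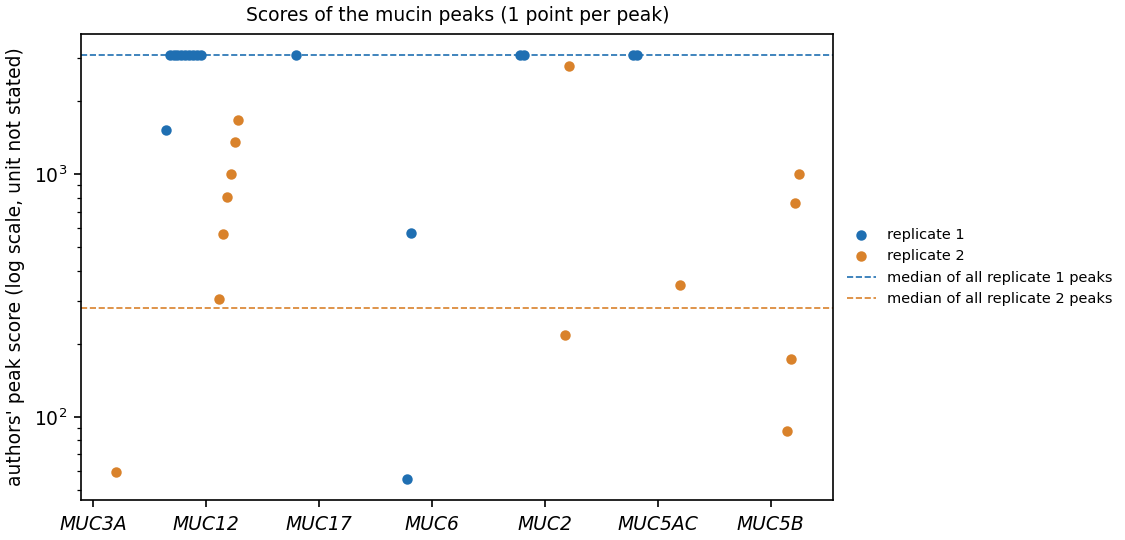
Each point is 1 peak, with the authors' score on a logarithmic axis for each of the 7 genes and dashed lines at the median of all peaks of each list (3100 in replicate 1, 281.27 in replicate 2). Of the 17 replicate 1 points 14 sit on the line at 3100, and the replicate 2 points spread from 59.27 to 2802.95.

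The scores are the authors' own, without a stated unit, and are read here within a list only. In replicate 1, 3100 is the most frequent score, and 14 of the 17 members had it, or 82.4%, beside 52.1% of that list at or above it. As scores helped to choose the windows, and 10 of the 17 peaks are neighbours in MUC12, nothing is read from this difference. The exceptions were the 2 MUC6 peaks and the MUC12 peak from 100635563 to 100635762, at 1522.12. Without MUC12 the share was 5 of 7, or 71.4%. In replicate 2, 10 of the 14 members scored above the median of the list, which 50% of the list does by definition. All 6 MUC12 peaks did, at 304.61, 807.72, 1672.35, 1006.54, 1362.72 and 566.34 in order of position. Of the 8 peaks in the other genes, 4 did.

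Over all members, 7 of 17 replicate 1 peaks overlapped a replicate 2 peak, or 41.2%, beside 13.6% of that list. Seen from replicate 2, 6 of 14 did, or 42.9%, beside 7.49%. The positions of these peaks chose the windows, so the shares are set side by side as a description. MUC12, whose peaks are neighbours and not independent, gave 6 of the 7 and 5 of the 6. In the other 6 genes, 1 of 7 replicate 1 peaks and 1 of 8 replicate 2 peaks overlapped, or 14.3% and 12.5%, and both belong to the MUC2 pair. Outside MUC12 the shares thus rest on 1 pair and cannot be told from those of the whole lists.

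Peaks are named in the files with running numbers, most of which are not listed. Over the whole files, 8.85% of the numbers up to the highest are listed in replicate 1 and 4.63% in replicate 2. In replicate 1 the 11 numbers from the first MUC12 peak to the MUC17 peak were all listed. In replicate 2, 6 of the 11 numbers across MUC12 were listed. On chromosome 11, from the first to the last member, 6 of 9 numbers were listed in replicate 1 and 7 of 31 in replicate 2. What kept the other numbered peaks out of the lists is not given in the sources used here. Each of these spans begins and ends at a listed peak. The windows were also chosen from listed peaks, so nothing is read from these shares.

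Peaks were fewer at 10 other mucin genes, counted in windows entered from general knowledge of hg19. As the windows of the 7 genes were chosen from peaks of these lists, the lower number is a description and no finding. Together they held 3 replicate 1 peaks and 4 replicate 2 peaks, in 4 of the 10 genes. MUC4 and MUC16, both membrane-bound and known in pancreatic cancer, had 1 peak in each list, at different places. MUC20 had 1 replicate 1 peak, and MUC19 had 2 replicate 2 peaks. MUC1, MUC7, MUC13, MUC15, MUC21 and MUC22 had none, and no peaks of the replicates overlapped at any of the 10. With 3 and 4 peaks, and overlaps for 13.6% and 7.49% of the peaks of the whole lists, this is no contrast with the 7 genes above.

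Loci of a similar kind, which were also known from these lists for their crowded peaks, gave mixed counts. FCGBP, which encodes a mucus protein with repeated domains, had 14 peaks in each list, and 9 of its 14 replicate 1 peaks (64.3%) overlapped a replicate 2 peak, beside 13.6% of that list. MUC12 had 6 of 10 (60.0%). HRNR, a gene for a repeat-rich skin barrier protein, had 5 and 2 peaks, and 1 of the 5 overlapped. DMBT1 had 6 replicate 1 peaks and no replicate 2 peak. With so few peaks, the counts of HRNR and DMBT1 cannot be told from the share of the whole list. Differences between these loci and the mucin genes were not tested.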

How the data were processed

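The peak scores were deposited by the authors in 2 lists, 1 per replicate number, which the labels tie to both the immunoprecipitated and the input sample. Per the submitters' processing notes, reads were trimmed with cutadapt 1.9.3 and the genome build is hg19. The sources used here give no aligner, annotation, peak caller version, threshold or unit of the score, and the first 4 of these decide which peaks are listed. Depth is unknown. Starts were read as 0-based and are printed 1-based.

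Overlap means 1 bp or more on the same strand, found with own code in Python (version 3.11.15), using pandas 2.3.3, scipy 1.17.1 and numpy 2.4.6. The overlap code was tested on simulated data. Distances between peaks of a list were searched up to 20 kb. Members, windows, gene cuts and lists were chosen with earlier results of these data known, so no test was run. Named are all 7 genes with every overlapping pair, and the highest-scoring and the widest peak of each list in each gene. Other peaks are named to account for every member. Alternatives tried were wider windows, either strand, other overlap rules, and filters on score and width.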

Additional observations from a re-analysis of the deposited data

How the results depend on the processing

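The counts of 17 and 14 member peaks were the same with windows widened by 10 kb, with either strand and with peaks of 50 bp or more, and were 14 and 10 when only peaks scoring no less than their own list's median were kept. The share of replicate 1 members overlapped by replicate 2, 41.2%, was lower with a reciprocal overlap of 50%, at 17.6%, and with centres within 100 bp, at 11.8%. It was 14.3% without MUC12 and 29.4% with overlaps of more than 10 bp, both chosen after seeing the data. It was 50% with the score filter and 41.2% with lists of equal length. The 13.6% of the whole list holds for overlaps of 1 bp or more without filters. It is therefore no measure for the shares under other overlap rules, the score filter or lists of equal length. The share of members in the chromosome 7 window ranged from 50% to 64.7% when 1 replicate was left out. An overlap between lists cannot be computed with a list left out. No paired analysis was possible because the immunoprecipitated and input samples of a replicate share 1 peak list. With 31 peaks in all and no read counts, no error between cultures can be given.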
